A study of Homo sapiens with 19 samples.

Results

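The genes described here are the Notch receptors NOTCH1, NOTCH2, NOTCH3 and NOTCH4, the ligands DLL1, DLL3, DLL4, JAG1 and JAG2, and the target gene HES1. They were chosen by symbol, and all 10 had a row among the 33382 genes measured in each sample. RNA-seq was performed on H1 cells, an established human embryonic stem cell (hESC) line, and on lines derived from it, with 19 samples in all. Polycomb repressive complex 2 (PRC2) deposits the histone mark H3K27me3 through EZH1, EZH2, EED and SUZ12. Unedited WT H1 cells (genotype: control) had 2 samples, as did each of the knockout lines EED-/- H1, SUZ12-/- H1, EZH1-/- H1, EZH2-/- H1 and, as the double knockout, EZH2-/-/EZH1-/- H1. In each knockout line the domain that the targeted gene needs for its function was deleted by CRISPR/Cas9 in clones selected with a drug, and the samples of a line carry different clone or passage names. H1-EED-/-/EED-OE cells carry a lentiviral EED transgene that doxycycline (DOX) induces, with the endogenous EED knocked out in those cells, and were sampled without replicates, with DOX and on days 8, 12, 16, 20, 24 and 28 after it was withdrawn. By the study's western blots cells of the SUZ12-/-, EED-/- and EZH2-/-/EZH1-/- lines had lost H3K27me3, and these are called the PRC2-null lines below. The mark was kept in WT H1 cells and, at a lower level, in the single knockouts of EZH1 and EZH2, and these are called the retaining lines.

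Notch signalling passes between cells in contact. A ligand of the Delta-like (DLL) or Jagged (JAG) family on one cell binds a NOTCH receptor on its neighbour, proteases of the ADAM family and then gamma-secretase cut the receptor, and the freed intracellular domain enters the nucleus. There it joins the DNA-binding protein RBPJ and coactivators of the MAML family and turns on genes for hairy-related repressors, of which HES1 is the best known. DLL3 differs from the other ligands in that it acts mainly inside the cell that makes it and does not activate receptors on neighbours. The pathway serves in the segmentation of the paraxial mesoderm, in the choice between neural progenitor and neuron, and in blood vessels, where DLL4 and NOTCH4 are characteristic of the endothelium and NOTCH3 of the smooth muscle and pericytes around it.

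The promoters of DLL4, JAG1, JAG2 and HES1 are shown because these are the members that were higher in the PRC2-null lines as a group. Each line holds the 250 bases before the RefSeq start on GRCh38.p14, 5′ to 3′ on the strand of the gene. Capitals mark TGGGAA, the core of the motif that RBPJ binds, searched on both strands as the only motif. RefSeq promoters were matched for 8 of the 10 members, and those of DLL1 and DLL3 were not.
DLL4, chr15:40929090-40929339, plus strand: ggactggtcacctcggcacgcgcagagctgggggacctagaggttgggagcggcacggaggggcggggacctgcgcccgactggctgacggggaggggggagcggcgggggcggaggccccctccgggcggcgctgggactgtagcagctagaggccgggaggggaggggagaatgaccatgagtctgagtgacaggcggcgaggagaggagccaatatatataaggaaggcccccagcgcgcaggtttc
JAG1, chr20:10674000-10674249, minus strand: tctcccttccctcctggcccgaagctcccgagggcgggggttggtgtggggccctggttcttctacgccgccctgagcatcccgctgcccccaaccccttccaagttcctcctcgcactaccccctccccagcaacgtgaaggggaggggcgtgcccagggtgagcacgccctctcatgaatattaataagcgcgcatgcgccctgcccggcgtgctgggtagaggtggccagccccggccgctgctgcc
JAG2, chr14:105168777-105169026, minus strand: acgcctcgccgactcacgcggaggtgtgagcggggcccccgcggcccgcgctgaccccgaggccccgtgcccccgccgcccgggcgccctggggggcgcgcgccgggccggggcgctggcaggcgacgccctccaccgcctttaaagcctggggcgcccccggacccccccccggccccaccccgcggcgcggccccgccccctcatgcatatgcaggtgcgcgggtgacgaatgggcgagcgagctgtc
HES1, chr3:194135898-194136147, plus strand: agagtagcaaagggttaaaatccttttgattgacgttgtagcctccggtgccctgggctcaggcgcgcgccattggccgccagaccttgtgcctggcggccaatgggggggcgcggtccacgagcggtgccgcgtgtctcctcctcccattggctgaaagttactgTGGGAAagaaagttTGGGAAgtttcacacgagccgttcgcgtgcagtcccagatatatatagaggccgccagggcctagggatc

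HES1 held 2 matches to TGGGAA, which began 84 and 70 bases before its start on the coding strand. No match was found in the windows of the other 7 promoters. At least 1 match was present in 20.8% of 35116 RefSeq promoters searched over their whole 300 bases, and at least 2 in 2.9%. The promoters also differed in CpG dinucleotides, the sites of DNA methylation. JAG2 held 38 in these 250 bases and NOTCH1 33, NOTCH2 held 29, NOTCH3 28, DLL4 20, HES1 18 and JAG1 17, whereas NOTCH4 held 3. The median over all promoters was 11 CpG.

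The values deposited are TPM, which divides by transcript length and sums to the same total in every sample, so that levels can be compared between genes but the sequencing depth is unknown. An adjusted p is from limma on log2(TPM + 1) with Benjamini-Hochberg adjustment over the 19100 genes with at least 1 TPM in at least 2 of the 12 line samples, and a gene is called higher or lower at an adjusted p of at most 1% with a fold of at least 3. All 10 members passed that filter. DLL4 did so through the PRC2-null samples alone, since it reached 1 TPM in 6 of these and in 0 of the 6 retaining samples. TPM of a targeted gene is no check of the labels where only a domain was deleted (EED was at 14.25 and 22.36 TPM in EED-/- H1 and at 17.3 and 21.96 TPM in WT H1). In H1-EED-/-/EED-OE cells EED was at 108.54 TPM with DOX and between 12.64 and 31.56 TPM without it. The labelled cell type matched its markers in the retaining lines, where 8 hESC markers summed to between 5921.2 and 7125.1 TPM, but they summed to between 182.1 and 490.6 TPM in the PRC2-null samples and all 8 were lower in each of them. EZH2-/-/EZH1-/- H1 replicate 2 stood apart. Genes with more than 6000 exon bases were at a median log2 difference of -0.57 from replicate 1 and genes with under 2000 at 0.12, and all 10 members were lower in it than in replicate 1. EZH2-/- H1 replicate 2 leaned the same way, at -0.32 and 0 with 9 members lower than in replicate 1, and so did EED-/- H1 replicate 2, at -0.13 and 0 with 8 lower. Values without the double knockout library are given where a member’s difference from WT H1 or the retaining lines moved by over 1.5 times or changed its call.

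The first question was whether the members' transcripts differ where H3K27me3 is lost. DLL4, JAG1, JAG2 and HES1 were higher in the 3 PRC2-null lines than in the 3 retaining lines, by 2.31 to 2.70 on the log2 scale, and DLL3 was lower by that comparison. Thus 4 of the 10 members were called higher, beside 13.5% of all 19100 genes, and 1 was called lower, beside 5.09%. The members' median log2 difference was 1.46 and that of all genes 0.29. For 8 of the 10 members every PRC2-null sample lay above every retaining sample, which held for 24.2% of all genes, and the exceptions were NOTCH1 and DLL3. In bulk samples like these, more cells of a type and more RNA per cell cannot be told apart. By the study's account the PRC2-null lines differentiated spontaneously, while the retaining lines stayed undifferentiated. Loss of the mark and differentiation therefore cannot be told apart in this comparison.

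**Figure D1:**
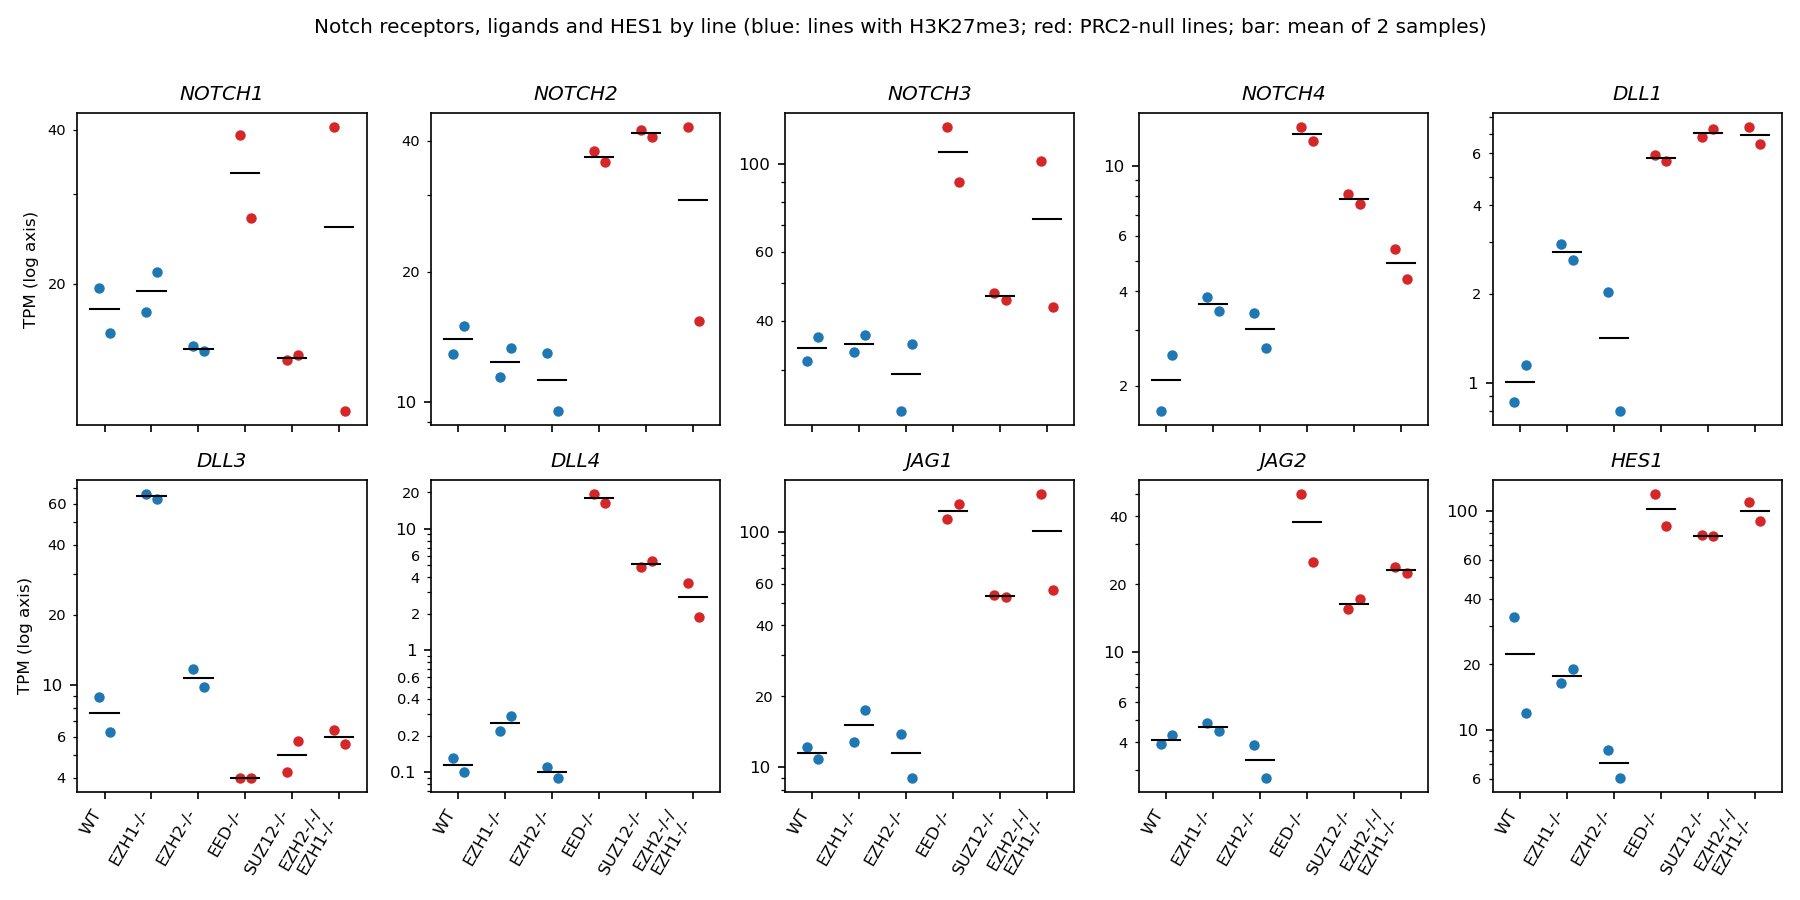
TPM of each member on a log axis in the 6 lines. Points are samples, black bars are the means of 2 samples, blue marks the retaining lines and red the PRC2-null lines. JAG1 lies between 8.99 and 17.47 TPM in the blue samples and between 52.68 and 145.07 TPM in the red ones, and DLL3 stands at 62.77 and 66.18 TPM in EZH1-/- H1.

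Among the receptors, NOTCH3 was the most abundant in every line. It was at 31.62 and 36.52 TPM in WT H1, 33.38 and 36.75 in EZH1-/- H1, 23.62 and 35.06 in EZH2-/- H1, 124.12 and 90.22 in EED-/- H1, 47.02 and 45.32 in SUZ12-/- H1, and 102.14 and 43.40 in EZH2-/-/EZH1-/- H1. The groups did not overlap, and EED-/- H1 lay highest with the double knockout spread across the range of the other PRC2-null lines. NOTCH3 was called higher in EED-/- H1 cells, with a log2 difference from WT H1 of 1.61 ± 0.35 (SE) and an adjusted p of 0.00285 (limma), but this is close to the 3-fold limit. The call was lost with scaling by median ratios (1.22), or without either WT H1 sample (adjusted p = 0.0262 and 0.0152, limma) or without EED-/- H1 replicate 1 (0.0345). In SUZ12-/- H1 the difference was 0.43 ± 0.35 and in EZH2-/-/EZH1-/- H1 0.95 ± 0.35, neither of which was called.

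NOTCH4, the receptor characteristic of endothelium, had the lowest level of the receptors in every line. Its values were 1.66 and 2.50 TPM in WT H1, 3.84 and 3.46 in EZH1-/- H1, 3.41 and 2.63 in EZH2-/- H1, 13.28 and 12.04 in EED-/- H1, 8.12 and 7.58 in SUZ12-/- H1, and 5.45 and 4.37 in EZH2-/-/EZH1-/- H1. The 2 samples of each PRC2-null line stood clear of those of the next, in the order EED-/-, SUZ12-/-, EZH2-/-/EZH1-/-. The difference from WT H1 was called in EED-/- H1 (log2 2.16 ± 0.26, adjusted p = 6.23e-05, limma). It fell just short of 3-fold in SUZ12-/- H1 (1.54 ± 0.26, adjusted p = 0.00069) and was 0.95 ± 0.26 in EZH2-/-/EZH1-/- H1 (adjusted p = 0.0131). NOTCH4 lies at 32194843 to 32224067 on chromosome 6 (GRCh38), and its exons overlap those of GPSM3 on the same strand.

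NOTCH2 was at 12.95 and 15.02 TPM in WT H1, 11.47 and 13.32 in EZH1-/- H1, 12.99 and 9.55 in EZH2-/- H1, 37.78 and 35.68 in EED-/- H1, 42.28 and 40.83 in SUZ12-/- H1, and 42.94 and 15.36 in EZH2-/-/EZH1-/- H1. Only the double knockout replicate 2 came near the retaining samples. Over the PRC2-null lines the log2 difference was 1.38 ± 0.22 (adjusted p = 0.000196, limma), under the 3-fold limit. Without that library it was 1.62 and was called. Of its near-identical copies, the files list NOTCH2NL, at 8.48 to 16.86 TPM in the PRC2-null and 0.56 to 4.95 TPM in the retaining samples, so reads shared by both cannot be assigned with certainty.

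NOTCH1 was the receptor with the smallest difference. It was at 19.64 and 16.01 TPM in WT H1, 17.60 and 21.09 in EZH1-/- H1, 15.11 and 14.76 in EZH2-/- H1, 38.95 and 26.84 in EED-/- H1, 14.16 and 14.53 in SUZ12-/- H1, and 40.43 and 11.27 in EZH2-/-/EZH1-/- H1. The highest and the lowest of the 12 values were the 2 samples of the double knockout, and SUZ12-/- H1 lay below WT H1. The difference between PRC2-null and retaining lines was 0.31 with a 95% interval from -0.26 to 0.88, and no line was called (adjusted p = 0.143 in EED-/- H1, limma). The difference between the 2 kinds of line was 0.60, under 3-fold, without double knockout replicate 2 and 0.02 without replicate 1. These are the ends of its range over the fits without 1 sample or 1 line.

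Of the ligands, JAG1 had the highest level in the PRC2-null lines. It was at 12.12 and 10.85 TPM in WT H1, 12.72 and 17.47 in EZH1-/- H1, 13.82 and 8.99 in EZH2-/- H1, 113.56 and 130.75 in EED-/- H1, 53.97 and 52.68 in SUZ12-/- H1, and 145.07 and 56.58 in EZH2-/-/EZH1-/- H1. Every PRC2-null sample was well above every other sample. Against WT H1, JAG1 was called higher in EED-/- H1 (log2 3.30 ± 0.37, adjusted p = 3.97e-05, limma), in EZH2-/-/EZH1-/- H1 (2.88 ± 0.37, adjusted p = 0.000137) and in SUZ12-/- H1 (2.12 ± 0.37, adjusted p = 0.000865). In the double knockout it was 3.55 without replicate 2 and 2.21 without replicate 1, both called. For SUZ12-/- H1 the call was lost without WT H1 replicate 2 (2.05, adjusted p = 0.0101, limma).

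JAG2, the other Jagged ligand, was at 3.91 and 4.29 TPM in WT H1, 4.87 and 4.47 in EZH1-/- H1, 3.90 and 2.78 in EZH2-/- H1, 50.15 and 25.10 in EED-/- H1, 15.48 and 17.17 in SUZ12-/- H1, and 23.91 and 22.38 in EZH2-/-/EZH1-/- H1. The groups again did not overlap, with EED-/- H1 replicate 1 far above the other samples. Against WT H1 the log2 difference was 2.84 ± 0.31 in EED-/- H1, 1.76 ± 0.31 in SUZ12-/- H1 and 2.24 ± 0.31 for the double knockout, all called (adjusted p = 3.28e-05, 0.000909 and 0.000224, limma). The SUZ12-/- H1 call was lost without WT H1 replicate 1 (adjusted p = 0.0107) or SUZ12-/- H1 replicate 2 (0.0117, limma). The exons of JAG1 and of JAG2 each overlap a long non-coding RNA, and the library kit keeps no strand.

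DLL4, the Delta-like ligand of endothelial cells, was at most 0.29 TPM where H3K27me3 was retained. It was at 0.13 and 0.10 TPM in WT H1, 0.22 and 0.29 in EZH1-/- H1, 0.11 and 0.09 in EZH2-/- H1, 19.36 and 16.25 in EED-/- H1, 4.87 and 5.42 in SUZ12-/- H1, and 3.60 and 1.87 in EZH2-/-/EZH1-/- H1. No samples of different PRC2-null lines overlapped. Against WT H1 the log2 difference was 4.07 ± 0.28 in EED-/- H1, 2.46 ± 0.28 in SUZ12-/- H1 and 1.70 ± 0.28 for the double knockout (adjusted p = 1.43e-06, 4.34e-05 and 0.000641, limma). The pseudocount of 1 makes these values smaller than the change in TPM. For EZH2-/-/EZH1-/- H1 the call was lost without replicate 1 (1.36) and kept without replicate 2 (2.04). The difference of 2.70 between PRC2-null and retaining lines was 2.03 without the EED-/- line, still called.

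Most markers of endothelial cells moved with DLL4 and NOTCH4. Of 12 such markers, 10 had all of their PRC2-null values above all of their retaining ones, and KDR and TEK did not. Summed, the 12 were at 518.3 and 756.9 TPM in EED-/- H1, 243.9 and 258.8 in SUZ12-/- H1 and 131.5 and 272.1 in the double knockout. The sums overlapped, since a retaining sample, EZH1-/- H1 replicate 2, reached 150.4 TPM, of which KDR made 132.98. EMCN was at 0 in all 6 retaining samples. The adhesion molecule PECAM1 was at 153.49 and 85.21 TPM in EED-/- H1, and at most 0.37 TPM in the retaining samples. Smooth muscle and pericyte markers (7 measured) summed to between 1243.1 and 5347.6 TPM in the PRC2-null and 210.0 to 622.3 TPM in the retaining samples, with 4 apart. Endoderm markers rose in the same samples, from a sum of 5.03 to 15.1 TPM to one of 1460.4 to 20194.6 TPM, with all 8 apart and TTR at 0 in every retaining sample. Mesoderm markers (8) summed to between 39.3 and 267.5 against 6.51 to 10.6 TPM with 6 apart, and neural ectoderm markers (8) to between 14.5 and 136.4 against 0.87 to 3.19 TPM with 3 apart. Those 3 were PAX6, SIX3 and LHX2. PAX6 made most of the sum in EED-/- H1 (128.76 and 50.03 TPM) and in the double knockout (21.91 and 24.47 TPM). SOX1 was at most 0.23 TPM in the PRC2-null samples. The study reported its own selected neural ectoderm markers as not expressed in the PRC2-null lines. The part of these cell types in the members' levels was not tested.

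DLL1, a Delta-like ligand of mesoderm and neural progenitors, was at 0.86 and 1.15 TPM in WT H1, 2.96 and 2.60 in EZH1-/- H1, 2.03 and 0.80 in EZH2-/- H1, 5.93 and 5.65 in EED-/- H1, 6.82 and 7.23 in SUZ12-/- H1, and 7.36 and 6.47 in EZH2-/-/EZH1-/- H1. It was the member with the closest levels among the PRC2-null lines. It was called higher than WT H1 in EED-/- H1 (log2 1.76 ± 0.29, adjusted p = 0.000511, limma), SUZ12-/- H1 (2.00 ± 0.29, adjusted p = 0.000241) and EZH2-/-/EZH1-/- H1 (1.98 ± 0.29, adjusted p = 0.000313). Scaling by median ratios took the EED-/- H1 value to 1.46 and ended the call. Against all retaining lines, among which EZH1-/- H1 lay highest, the difference was 1.54 ± 0.17 (adjusted p = 1.22e-05), a fold of 2.9 and so not called, though it was called without EZH2-/- H1 replicate 1 (1.66), the EZH1-/- line (1.80) or the EED-/- line (1.61). DLL1 exons overlap those of FAM120B on the opposite strand.

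DLL3 was highest in EZH1-/- H1 cells. It was at 8.90 and 6.29 TPM in WT H1, 66.18 and 62.77 in EZH1-/- H1, 11.71 and 9.79 in EZH2-/- H1, 4.0 in both samples of EED-/- H1, 4.22 and 5.78 in SUZ12-/- H1, and 6.43 and 5.59 in EZH2-/-/EZH1-/- H1. EZH1-/- H1 stood far above all other lines, and the PRC2-null samples overlapped only with WT H1 at the low end. In EZH1-/- H1 cells DLL3 was higher than in WT H1 by 2.95 ± 0.26 on the log2 scale (adjusted p = 0.00177, limma), the 1 member called there, where 0.0576% of all genes were called higher. The size ranged from 2.72 to 3.17 without any 1 sample, but the call was lost without any of the 4 samples of both lines (adjusted p from 0.0223 to 0.052, limma). The difference of -1.66 ± 0.15 between PRC2-null and retaining lines (adjusted p = 2.66e-06) rests on that line, and without it was -0.75 and not called. The call was also lost just under 3-fold without WT H1 replicate 1 (-1.58) and without the EED-/- line (-1.53). Against WT H1 alone DLL3 differed by -0.76 in EED-/- H1, -0.51 in SUZ12-/- H1 and -0.28 for the double knockout, none called.

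HES1, the target gene, was called higher in each PRC2-null line. It was at 32.75 and 11.96 TPM in WT H1, 16.40 and 19.14 in EZH1-/- H1, 8.13 and 6.06 in EZH2-/- H1, 120.43 and 85.81 in EED-/- H1, 77.71 and 76.88 in SUZ12-/- H1, and 110.09 and 90.49 in EZH2-/-/EZH1-/- H1. All PRC2-null samples were above all others, and the 2 WT H1 samples were the farthest apart of the retaining pairs. The difference from WT H1 was 2.30 ± 0.37 in EED-/- H1, 1.90 ± 0.37 in SUZ12-/- H1 and 2.27 ± 0.37 for the double knockout (adjusted p = 0.000481, 0.00175 and 0.000679, limma). Leaving out WT H1 replicate 2, the lower sample, left 1.61, 1.21 and 1.58 in the same order (2.99, 2.59 and 2.96 without replicate 1) and ended the calls in SUZ12-/- H1 and EZH2-/-/EZH1-/- H1, and leaving out either SUZ12-/- H1 sample ended the SUZ12-/- H1 call (adjusted p = 0.0145 and 0.0138, limma). In EZH2-/- H1 it was -1.38 ± 0.37 (unadjusted p = 0.00372, adjusted p = 0.445), the largest difference of any member in that line. It was -0.69 without WT H1 replicate 1 and -2.07 without replicate 2, not called in either.

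By line, 7 of 10 members were called higher in EED-/- H1 than in WT H1 (16.2% of all genes), 5 in SUZ12-/- H1 (14.5%) and 5 in the double knockout (11.6%). These comparisons share the WT H1 samples. Without double knockout replicate 2 the same 5 were called in that line, while NOTCH1, NOTCH2 and NOTCH3 went from 0.27, 0.84 and 0.95 to 1.14, 1.56 and 1.56, none called. The median log2 difference of the members was 1.96, 1.65 and 1.33, and that of all genes 0.36, 0.22 and 0.19. In EZH2-/- H1 no member was called by limma, nor was any of the 19100 genes (0%), while 1 member and 1110 genes had an unadjusted p under 0.05. In EZH1-/- H1, 3 members and 3058 genes had an unadjusted p under 0.05, among the members DLL1 at 0.92 ± 0.29 (adjusted p = 0.165, limma).

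**Figure D2:**
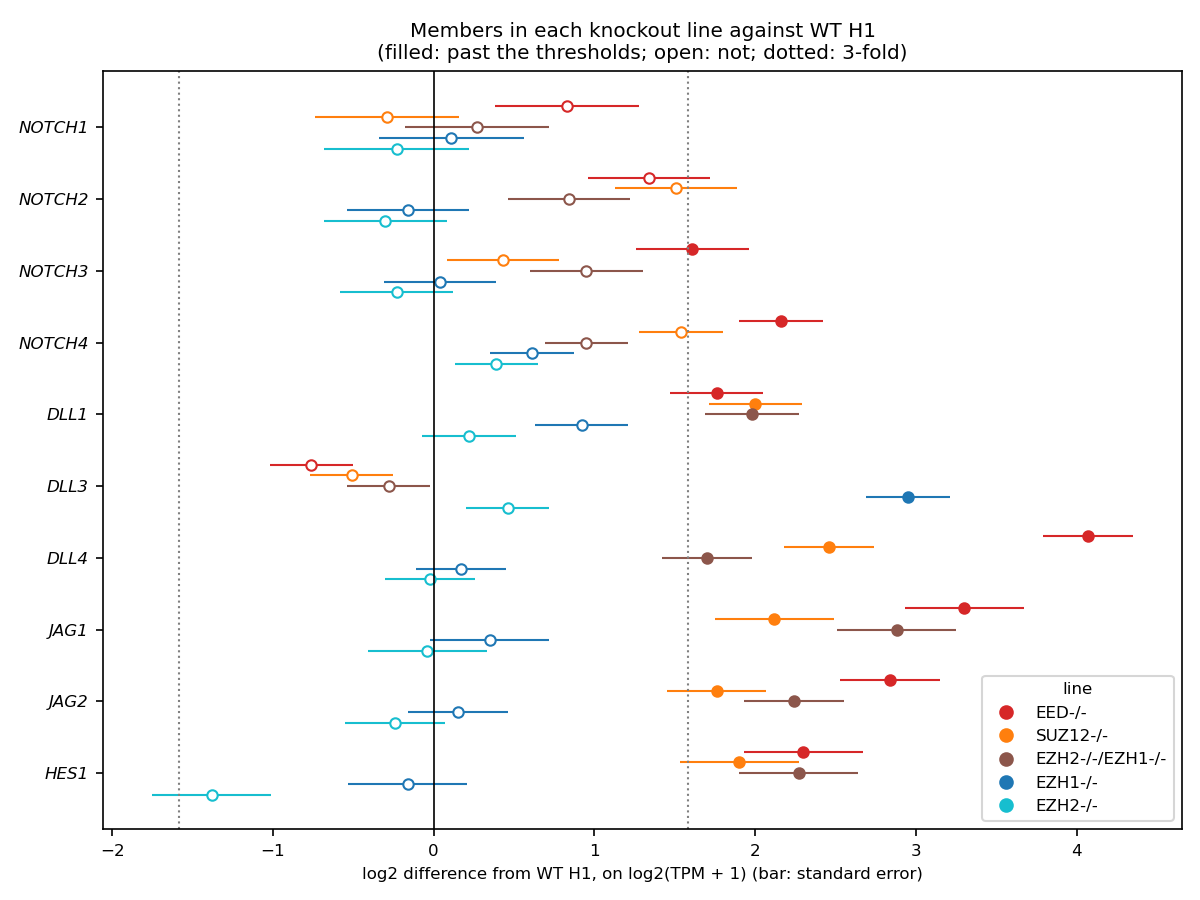
Log2 difference of each member from WT H1 on log2(TPM + 1) in the 5 knockout lines. Bars are standard errors, filled points are past the thresholds, open points are not, and dotted lines mark 3-fold. The 3 PRC2-null lines are filled at DLL1, DLL4, JAG1, JAG2 and HES1, and EZH1-/- H1 is filled at DLL3 alone, at 2.95.

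Whether the PRC2-null lines differ from one another was tested directly. DLL4 was higher in EED-/- H1 than in SUZ12-/- H1 by 1.61 ± 0.28 (adjusted p = 0.00248, limma), the 1 member called, where 2.58% of all genes were called higher. It was also higher in EED-/- H1 than in EZH2-/-/EZH1-/- H1 by 2.37 ± 0.28 (adjusted p = 0.00923), where 0.0576% of genes were called higher. Both calls depended on single libraries and settings. The first was lost without EED-/- H1 replicate 1 or either SUZ12-/- H1 sample (adjusted p = 0.0186, 0.0305 and 0.0219, limma) and with a pseudocount of 0.1 or median ratios. The call against the double knockout was lost in 10 of 12 fits without 1 sample, with adjusted p up to 0.0467, without double knockout replicate 2 among them (2.03, adjusted p = 0.0255, limma). With the replicate block the latter had an adjusted p of 0.0124. Between SUZ12-/- H1 and EZH2-/-/EZH1-/- H1 no member was called by limma, beside 4.46% of all genes. There, 2 members and 5438 genes had an unadjusted p under 0.05 (limma). NOTCH1, NOTCH3, JAG1 and JAG2 were 1.08 to 1.18 higher in EED-/- than in SUZ12-/- H1 with adjusted p of 0.107, 0.0369, 0.0493 and 0.0347 (limma).

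Other genes of the pathway were taken from 6 lists of 48 genes, of which 46 were tested. Between PRC2-null and retaining lines 6 were called higher and 1 lower, and their median log2 difference was 0.83. The 6 are 13.0% of those tested, near the 13.5% of all genes. Against WT H1, 9 were higher and 0 lower in EED-/- H1, 8 and 1 in SUZ12-/- H1, 7 and 1 in the double knockout, and 0 in either single EZH knockout (limma). The higher ones were 19.6%, 17.4% and 15.2% of the 46, beside 16.2%, 14.5% and 11.6% of all genes. Of 8 hairy-related and other target genes tested, the transcription factors HES4 (log2 4.71 ± 0.15), HEY1 (3.69 ± 0.18) and HES2 (2.80 ± 0.18) were higher and NRARP, a feedback inhibitor that binds the receptor's intracellular domain, was lower (-1.66 ± 0.21, adjusted p = 4.21e-05, limma). HES4 went from 0.26 to 2.00 TPM in the retaining samples to 21.52 to 84.32 TPM in the PRC2-null ones, and HEY1 from 0.26 to 2.36 TPM to 14.33 to 33.39 TPM. NRARP lay between 13.29 and 22.64 TPM in the retaining and 1.65 and 7.56 TPM in the PRC2-null samples, the opposite side from HES1.

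Of the 9 genes of receptor cleavage, FURIN, the protease that processes the receptor on its way to the surface, was higher (2.41 ± 0.18), at 70.36 to 161.46 against 15.66 to 31.05 TPM, and the 8 genes of the ADAM proteases and gamma-secretase were not called. In the nuclear complex 1 of 7 was called, the coactivator MAML2 (1.71 ± 0.28), while RBPJ was at 37.31 to 71.59 TPM in the PRC2-null and 61.27 to 134.08 TPM in the retaining samples and was not called. None of the 5 glycosylation genes and none of the 13 genes of endocytosis and turnover was called in this comparison. In EED-/- H1 against WT H1 the fringe glycosyltransferases MFNG (2.07 ± 0.39) and RFNG (1.61 ± 0.19) were called higher. Of the 4 non-canonical ligands DLK1, an inhibitor of Notch signalling in several cell types, was higher by 7.85 ± 0.25 (adjusted p = 2.23e-09, limma). Its mean was 3802.1 TPM in SUZ12-/- H1, 139.4 in EED-/- H1 and 174.4 in EZH2-/-/EZH1-/- H1, and at most 1.26 TPM in a retaining line. DLK1 was lower in EED-/- than in SUZ12-/- H1 (-4.82 ± 0.43, adjusted p = 4.06e-05, limma), the reverse of DLL4.

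**Figure D3:**
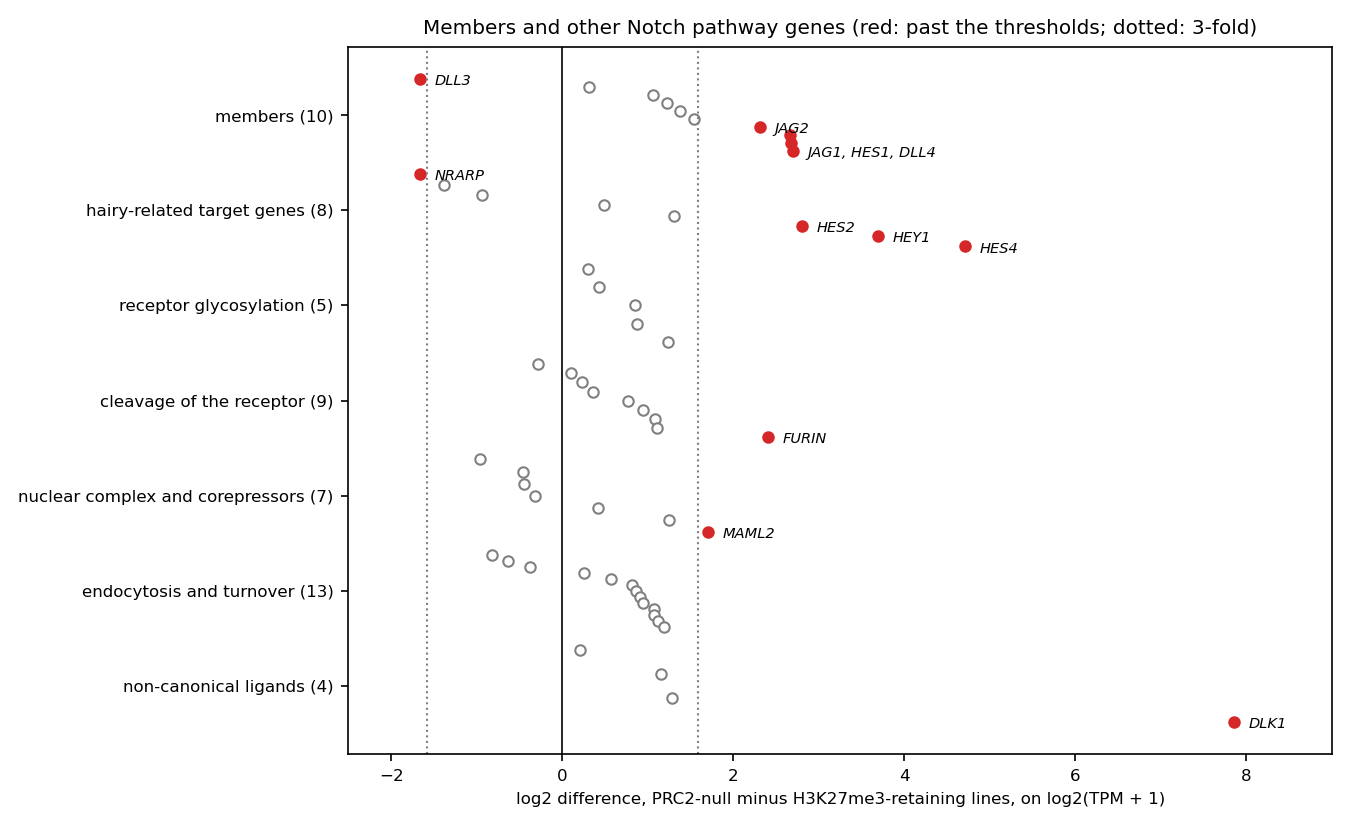
Log2 difference between PRC2-null and retaining lines on log2(TPM + 1) for the 10 members and the 46 other Notch pathway genes tested, by list, with the number tested. Red points are past the thresholds and named, open points are not, and dotted lines mark 3-fold. DLK1 lies farthest to the right, at 7.85, and NRARP and DLL3 lie to the left, both at -1.66.

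The time course in H1-EED-/-/EED-OE cells asked how the members' levels run after EED is withdrawn. Its time points have 1 sample each, so single days carry no test, and a difference of at least 3-fold on log2(TPM + 1) from the sample with DOX is counted instead. At least 3-fold higher were 1 of 10 members at day 8 (HES1), 1 at day 12 (DLL3), 0 at day 16, 4 at day 20 (NOTCH2, DLL3, JAG1, HES1), 5 at day 24 (NOTCH2, NOTCH4, DLL4, JAG1, HES1) and 8 at day 28, all but NOTCH1 and DLL3. Over the 17245 genes with at least 1 TPM in at least 2 of these 7 samples the shares were 2.93%, 3.08%, 4.13%, 9.62%, 13.9% and 18.8% in the same order. DLL4 passed that filter through days 24 and 28 alone, the days on which it is counted as higher. No member was 3-fold lower on any day, beside 104, 69, 162, 502, 877 and 1053 of the 17245 genes in the order of the days. The fit of log2(TPM + 1) on the day called 0 of 10 members, beside 2.01% of all genes. That fit assumes a straight line and independent samples, and samples of 1 culture series may not be independent. An unadjusted p under 0.05 (limma) was found for 6 members and for 6345 of the 17245 genes.

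**Figure D4:**
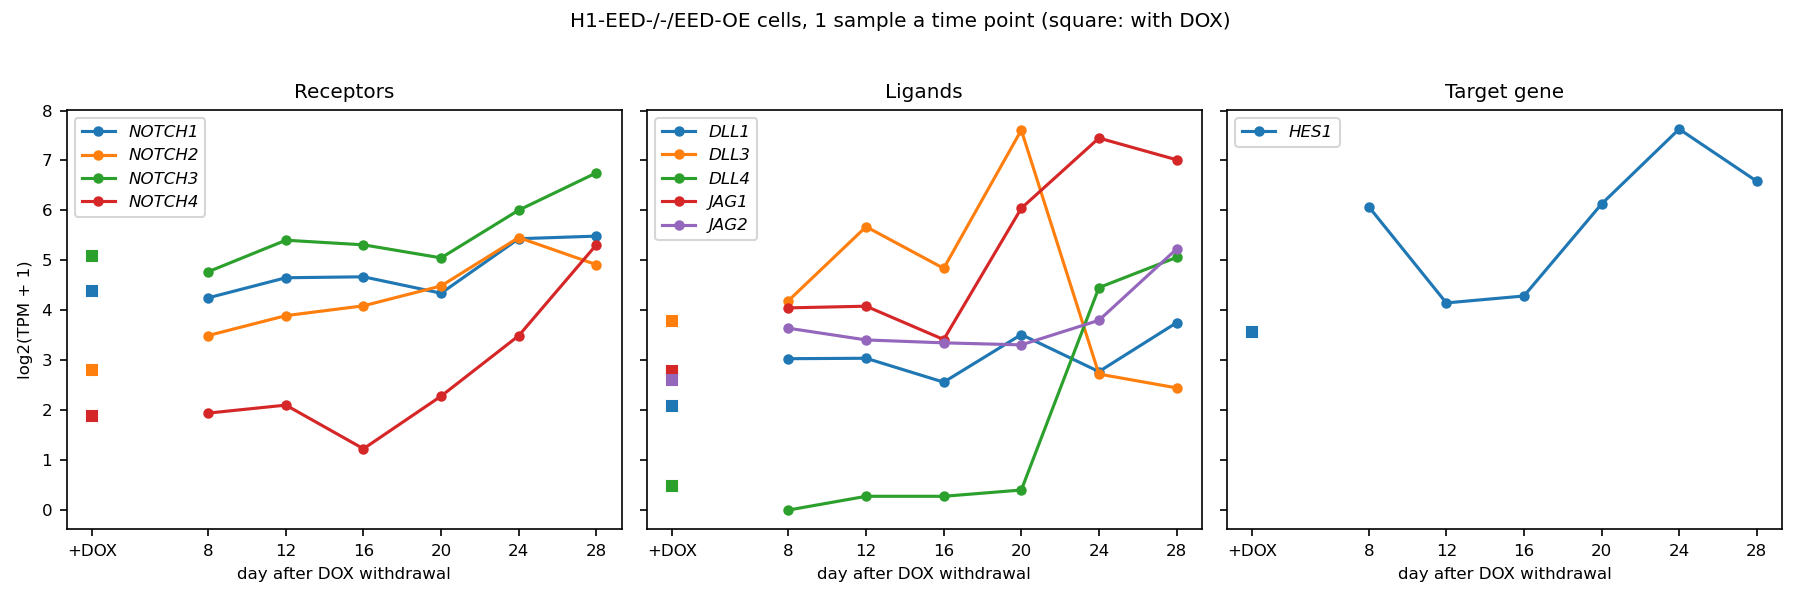
Members in H1-EED-/-/EED-OE cells as log2(TPM + 1) against the day after DOX withdrawal, with the sample with DOX as a square, 1 sample a point. DLL4 stays under 1 up to day 20 and then lies above 4, DLL3 peaks at day 20, and HES1 is high at day 8, low at days 12 and 16, and high from day 20.

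DLL4 was low up to day 20 and high after it. It was at 0.40 TPM with DOX, listed at 0 at day 8, at 0.21, 0.21 and 0.32 TPM at days 12, 16 and 20, and at 20.91 and 32.34 TPM at days 24 and 28. The step lay between the samples of days 20 and 24. NOTCH4 was at 2.68 TPM with DOX, between 1.34 and 3.86 TPM up to day 20, and at 10.24 and 38.67 TPM at days 24 and 28. Endothelial markers summed to 47.7 TPM with DOX, 170.1, 200.6 and 190.4 at days 12, 16 and 20, 771.6 at day 24 and 598.3 at day 28. Most of the sum up to day 20 was KDR, at 38.46 TPM with DOX and 145.6 at day 20. At day 20 PECAM1 was at 1.40 and CDH5 at 1.36 TPM, while ESAM was at 24.78 and VWF at 9.10 TPM. The part of these markers was not tested.

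JAG1 and NOTCH2 were already 3-fold above the DOX sample at day 20. JAG1 was at 5.85 TPM with DOX, 15.54, 15.93 and 9.66 TPM at days 8, 12 and 16, 64.94 at day 20, and 173.67 and 128.23 at days 24 and 28. NOTCH2 went from 5.94 TPM with DOX through 10.27, 13.85, 16.02 and 21.42 to 42.90 TPM at day 24, with 29.13 TPM at day 28. The fitted log2 differences from day 8 to day 28 were 3.94 for JAG1 and 1.74 for NOTCH2 (adjusted p = 0.0262 and 0.0256, limma). Both are past an FDR of 5% but not of 1%, as are DLL4 (5.42), NOTCH3 (1.63) and NOTCH4 (3.15). Leaving out 1 day moved these from 3.37 to 4.95 for JAG1 (highest without day 8), 1.41 to 2.26 for NOTCH2, 4.52 to 6.87 for DLL4 (lowest without day 28, highest without day 8), 1.06 to 1.84 for NOTCH3 and 1.64 to 4.34 for NOTCH4 (likewise).

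HES1 was not monotonic. It was at 10.85 TPM with DOX, 66.41 at day 8, 16.72 and 18.51 at days 12 and 16, then 68.91, 196.91 and 94.87 at days 20, 24 and 28. The value at day 8 is 1 sample, and JAG1 and JAG2 (11.47 TPM, against 5.10 with DOX) lay above the DOX sample on that day by less than 3-fold. Among other target genes, HES4 and HES2 were likewise 3-fold higher at day 8 (log2 differences of 3.33 and 2.05), and HEY1 was not (0.05). Neural ectoderm markers summed to 57.8 TPM at day 8, against 2.12 with DOX and 10.6 to 37.9 on the later days. SIX3 alone made 37.6 TPM of the sum at day 8, and PAX6 made 32.76 TPM of the 37.9 at day 28.

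DLL3 was highest at day 20. It was at 12.78 TPM with DOX, 17.29, 50.02 and 27.62 at days 8, 12 and 16, 194.13 at day 20, and 5.60 and 4.45 at days 24 and 28. Of the 8 mesoderm markers, 5 were also at their highest at day 20, among them T (185.95 TPM) and HAND1 (469.61 TPM), whereas MIXL1 was highest at day 16 (302.7 TPM) and MEOX1 and PDGFRA at day 28 (1.85 and 29.36 TPM). The hESC markers summed to 5229.1 TPM with DOX, 2702.0 at day 20 and 477.4 at day 24. NOTCH1 was at 19.89 TPM with DOX, 18.02 to 24.46 TPM up to day 20 and 42.19 and 43.77 TPM at days 24 and 28. NOTCH3 was at 33.19 TPM with DOX and 106.75 at day 28, JAG2 was at 36.42 TPM at day 28 after 8.90 to 12.92 TPM on the days before, and DLL1 was at 3.21 TPM with DOX and 4.90 to 12.46 TPM without it.

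Genes whose pattern was most like each member were sought over all 19 samples among 16895 genes, by Pearson r of log2(TPM + 1), as a description. DLL4 was closest to CXorf36 (r = 0.988) and GPR4 (0.98), and NOTCH4 to GIMAP4 (0.943) and DLL4 itself (0.929). JAG1 was closest to DLC1 (0.977) and NRP2 (0.973), JAG2 to SIM2 (0.977) and TSPAN11 (0.97), and NOTCH2 to HEG1 (0.97) and CLCN5 (0.968). HES1 was closest to CEACAM19 (0.937) and CREB3L1 (0.927), NOTCH3 to XPC (0.951) and SMURF1 (0.947), DLL1 to SERPINB1 (0.924) and CYP27A1 (0.919), NOTCH1 to MGRN1 (0.913) and BCL9L (0.861), and DLL3 to ADRA2C (0.899) and AC141928.1 (0.88). The points share the split between differentiated and undifferentiated samples.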

How the data were processed

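RNA was extracted with Trizol and made into TruSeq libraries, a kit that keeps no strand. Per the study's methods the authors aligned reads with Bowtie2 to a GRCh38 mRNA reference and quantified them with RSEM, and they deposited TPM for 33382 genes in each of 19 samples. Read depth is unknown, so no interval or floor that needs it is given and precision rests on 2 samples a line. Since nothing says that all pairs are separate cultures, p-values measure the spread between these samples, which may be partly technical.

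The authors describe edgeR on raw counts with an FDR of 1% and a 3-fold change. Counts were not used here, so limma 3.58.1 in R 4.3.3 was fitted to log2(TPM + 1) with a mean for each of the 6 lines, eBayes with trend and robust options, and those thresholds. The trend was fitted on days 8 to 28. Fold changes on this scale understate the change of low genes. Scripts were tested on simulated data. The members and lists were chosen with earlier results of these data known. Named beside the 10 members were at most 4 called genes a list with the largest differences, the 2 genes most like each member, and markers. RGS5 had more than 1 row and was left out. Coordinates are from GENCODE release 44 (GRCh38) and promoters from RefSeq (GRCh38.p14). Python 3.11.15, pandas 2.3.3, numpy 2.4.6 and matplotlib 3.10.9 were used.

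Replicate numbers follow the order of the samples and pair nothing. Alternatives were a pseudocount of 0.1, no filter, at least 1 TPM in all 12 samples, median-ratio scaling, an FDR of 5% with no fold, a replicate block, fits of 4 samples, leaving out each sample, day or line, and other references for the days.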

Additional observations from a re-analysis of the deposited data

Results flagged for a closer look

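In groups of 6 samples, 20 sets of values were looked at for a sample apart from the rest, and 2 had one, where chance gives about 1 in 20. NOTCH2 in EZH2-/-/EZH1-/- H1 replicate 2 was at 15.36 TPM, below the other PRC2-null samples by 0.737 of their range. In that library long genes were low and all 10 members lay below replicate 1, and EZH2-/- H1 replicate 2 leaned the same way, with 9 lower. JAG2 in EED-/- H1 replicate 1 was at 50.15 TPM, above the other PRC2-null samples by 0.723 of their range.

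DLL4 differed between lines that all lack H3K27me3, by a test of the difference itself (limma), with 1.61 on the log2 scale between EED-/- H1 and SUZ12-/- H1 and 2.37 between EED-/- H1 and EZH2-/-/EZH1-/- H1. The 2 samples of EED-/- H1 (16.25 and 19.36 TPM) were above all 4 samples of the other PRC2-null lines. Both calls depended on single libraries and settings, as given above.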

How the results depend on the processing

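Direction was followed for every member between PRC2-null and retaining lines and over days 8 to 28. It was also followed for each called difference between lines and for HES1 in EZH2-/- H1. In these it held in all but 1 of the alternatives tried: DLL1 over days 8 to 28 was at -0.02 without day 28. Of these values for single members, 678 kept their side of the threshold, 42 lost it and 16 gained it. Other differences that were not called are not counted here. Scaling by median ratios took the median difference of all genes between PRC2-null and retaining lines from 0.291 to 0.079, and 5 members were called as before.

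Requiring at least 1 TPM in all 12 samples removes DLL1 and DLL4, which the main fit called in both lines, and leaves 8 members tested. Of these, 3 were called in EZH2-/-/EZH1-/- H1 and 3 in SUZ12-/- H1, in each JAG1, JAG2 and HES1 as before. Among all genes under that filter, 1850 and 1847 were called in either direction. With only the 4 samples of the line and WT H1, 1 member was called in EZH2-/-/EZH1-/- H1, beside 1508 of all genes in either direction. The main fit called 5 members in that line, beside 3301 of all genes. With an FDR of 5% and no fold, 9 were called between PRC2-null and retaining lines (68.6% of all genes), 4 between EED-/- and SUZ12-/- H1 (19.6%) and 5 over the days (19.6%). Between EED-/- and SUZ12-/- H1, 0 were called with a pseudocount of 0.1 or median ratios. Between EED-/- and EZH2-/-/EZH1-/- H1, 0 were called with the pseudocount of 0.1 or no filter. The 12-sample filter also gave 0 in both, but it removes DLL4, the only member called there, and so cannot test that call. Entering DOX as day 0 called 1 over the days (NOTCH2), and leaving out day 20 called 1 (DLL4). At day 8, 2 members were 3-fold higher or lower with a pseudocount of 0.1, and 2 against WT H1, which gave 2 at day 12 and 1 at day 16.

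Leaving out 1 sample, the calls ranged from 3 to 5 in SUZ12-/- H1 (lowest without SUZ12-/- H1 replicate 2), 0 to 1 in EZH1-/- H1, 0 to 1 between EED-/- and SUZ12-/- H1, 0 to 1 between EED-/- and EZH2-/-/EZH1-/- H1 and 0 to 1 over the days. Without EZH2-/-/EZH1-/- H1 replicate 2, 6 members were called between PRC2-null and retaining lines, 7 in EED-/- H1 and 5 in SUZ12-/- H1.

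A replicate block took the calls between EED-/- and EZH2-/-/EZH1-/- H1 to 0 and changed no other count of members. The numbers only name samples, and the correlation of same-numbered deviations ran from -0.12 to 0.22 over 15 pairs of lines. Since depth is unknown, low levels such as DLL4 in the retaining lines cannot be told from 0 by counting error.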
